A study of Oryctolagus cuniculus with 4 samples.

Results

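To examine how cartilage transcripts were represented in rabbit ear hypertrophic scar (HS) tissue, 10 known cartilage genes were followed through 4 single-cell RNA sequencing libraries. The genes were COL9A1, COL9A2, CNMD, HAPLN1, COL11A2, FRZB, SCRG1, CLEC3A, MATN3 and S100A1. Out of 13913 genes they were chosen by name and selected on the measured difference between the untreated libraries, as known cartilage genes whose values in HS replicates 1 and 2 differed, so the difference between those libraries is a description of the choice and not a finding. All 10 passed the filter on low values described below, MATN3 only through its value in HS replicate 1, since its mean over the other 3 libraries was 0.978 units, under the limit of 1.

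The rabbits were wild type (WT) females of 10 to 12 weeks. Strain was not given in the sources used here. Round wounds of 7 mm were made on the ventral side of the ear, with epidermis, dermis and perichondrium removed, and the scars that grew there were used on day 43. The HS group (2 libraries) had no treatment. The drug-loaded MNs group (2 libraries) received separating microneedles (MNs) weekly for 3 weeks. Their gelatin methacryloyl tips hold a crosslinked prodrug of a fluorouracil derivative, stay in the scar and release the drug there. There was no group with drug-free needles or normal skin among these libraries, so needle and drug cannot be told apart. Each library came from 1 scar tissue, and the study calls the 2 of a group biologically independent. The labels do not say whether the tissues of a group came from separate rabbits, so the spread between libraries may be partly technical. Ventral epidermis and dermis were kept for dissociation, while the cartilage plate of the ear lies beneath them.

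Cartilage is built by chondrocytes, which surround themselves with a gel of proteoglycans held in a mesh of thin collagen fibrils. Type II collagen forms the core of these fibrils, type XI collagen sets their width, and type IX collagen decorates their surface. Link protein ties the proteoglycan aggrecan to hyaluronan, matrilins and other adaptors join fibrils to proteoglycans, and chondromodulin helps to keep the tissue free of vessels. The cartilage of the external ear is of the elastic kind, with elastin fibres in the same matrix, and the surrounding perichondrium holds fibroblast-like cells that can form new cartilage.

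Relative expression is given in units, where all genes of a library sum to 1000000 units. Only the level of a gene over a whole library was analysed, none of single cells, so fewer cells of a type and less RNA per cell cannot be told apart. KRT10, a keratin of differentiating epidermis, ranged from 24607 to 45325 units, and COL1A2, a chain of the main dermal collagen, from 12946 to 26648 units, so epidermal and dermal transcripts were present in all 4 libraries. From 11844 to 12059 genes were detected per library, and the sequencing depth was unknown. The mitochondrial share was 2.75% and 2.80% in HS and, after treatment, 4.37% and 4.58%.

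Together the 10 genes made up 0.145% of the total in HS replicate 1 and 0.0059% in HS replicate 2. In drug-loaded MNs they made up 0.0574% in replicate 1 and 0.0444% in replicate 2. Both treated libraries thus lay between the untreated ones, at 39.6% and 30.6% of the summed level of HS replicate 1.

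Among the fibril collagens, COL11A2, a chain of type XI collagen, stood at 384 units in HS replicate 1, 15.2 in HS replicate 2, 193 in drug-loaded MNs replicate 1 and 93.1 in replicate 2. COL9A1, a chain of type IX collagen, stood at 273 and 6.53 units in the HS libraries and at 127 and 83.3 in those of drug-loaded MNs. In both genes the treated libraries fell inside the span of the untreated ones, and the groups overlapped. COL9A2, which codes for a partner chain of COL9A1, stood at 25.8 and 0.847 units in HS and at 10.2 and 32.0 in drug-loaded MNs. Its highest value was therefore in a treated library, unlike that of the other 9 genes.

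Of the proteins that bind the collagen and proteoglycan network, HAPLN1, the link protein, stood at 162 and 6.21 units in HS and at 93.0 and 52.9 in drug-loaded MNs. MATN3, a matrilin, was low throughout, at 7.45 and 0.536 units in HS and at 1.36 and 1.04 in drug-loaded MNs. CLEC3A, a C-type lectin of cartilage, stood at 18.5 and 1.11 units in HS and at 9.98 and 4.14 in drug-loaded MNs. For all these genes HS replicate 1 was highest and HS replicate 2 lowest, with the treated libraries in between. MATN3 lay near 1 unit in every library but HS replicate 1.

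Secreted regulators kept the same order. CNMD, which codes for chondromodulin, stood at 313 and 10.9 units in HS and at 54.5 and 122 in drug-loaded MNs. FRZB, a secreted binder of Wnt proteins, stood at 118 and 4.67 units in HS and at 37.9 and 26.3 in drug-loaded MNs. SCRG1, a small secreted protein gene first described in scrapie-infected brain and also made by cartilage, stood at 44.5 and 1.91 units in HS and at 8.73 and 10.6 in drug-loaded MNs. FRZB and SCRG1 differed less between the treated libraries than CNMD did. S100A1, a calcium-binding protein also made by heart and other tissues, stood at 106 and 11.1 units in HS and at 38.6 and 18.8 in drug-loaded MNs, and its HS replicate 2 value was the least far below the rest.

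**Figure D1:**
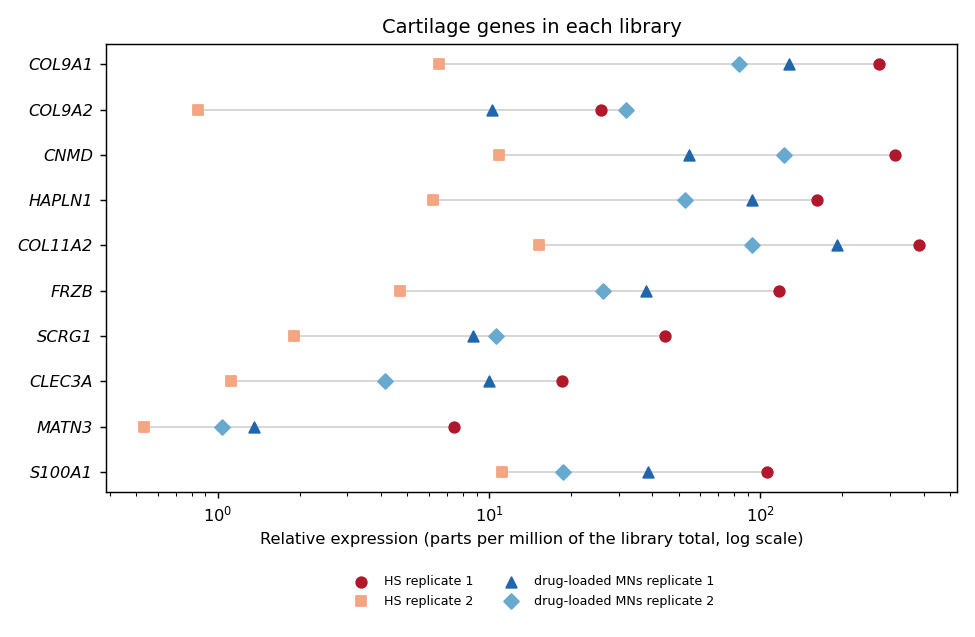
Relative expression of the 10 cartilage genes in each library, in units (library total 1000000) on a log axis; each point is 1 library and grey lines span the 4 libraries. HS replicate 2 is lowest in all 10 genes, HS replicate 1 is highest in 9, and in COL9A2 drug-loaded MNs replicate 2 is highest at 32.0.

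The values that chose the genes spanned a range. HS replicate 1 exceeded HS replicate 2 by 41.8-fold in COL9A1, 30.5-fold in COL9A2, 28.8-fold in CNMD, 26.1-fold in HAPLN1 and 9.52-fold in S100A1, with a median of 25.2-fold over the 10 genes. On a log2 scale after adding 1 unit, on which differences of low genes come out smaller than their ratios, the median difference was 4.18 and the lowest was 2.46, in MATN3. All 10 genes exceeded a difference of 1, as did 2.37% of the 9348 genes that passed the filter, and the median of those 9348 was -0.12. COL9A1 had the second highest difference of all of these. The members had no numeric limit: S100A1, with the smallest ratio among them, lay close to COL11A1 outside them, at 10.4-fold. With 1 library on each side this difference has no replicate check, and no test was made.

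**Figure D2:**
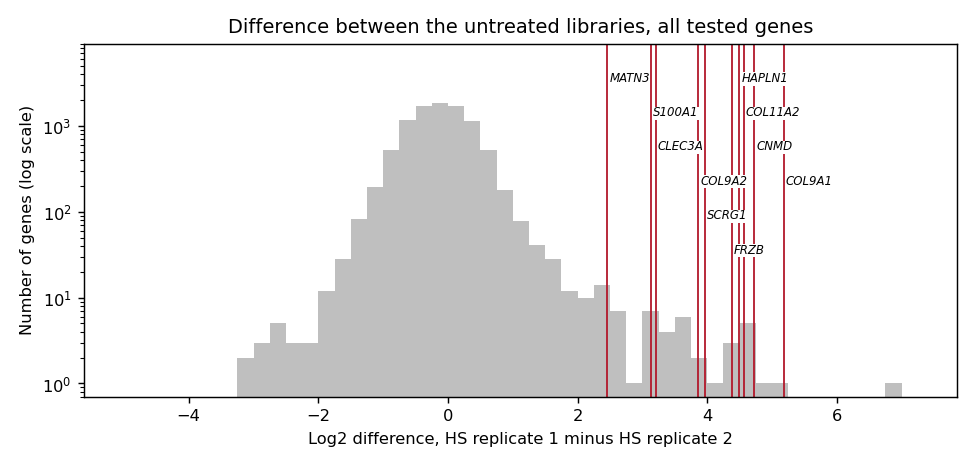
Number of genes (log axis) by the log2 difference (after adding 1 unit) of HS replicate 1 minus HS replicate 2 over 9348 genes, with a red line for each of the 10 cartilage genes. The cartilage genes lie between 2.46 and 5.19, while the median of all genes is -0.12.

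The treated libraries took no part in that choice. Both lay between the HS libraries in 9 of the 10 genes. Of the 222 genes with HS replicate 1 above HS replicate 2 by more than 1 on the log2 scale, 54.1% had that order. The members differed by at least 2.46 on that scale, and a wider gap leaves more room between the HS libraries. The 2 shares are therefore not like for like, and the 9 of 10 depends in part on the values that chose the genes. Drug-loaded MNs replicate 1 held 17.4% (CNMD) to 57.4% (HAPLN1) of the level of HS replicate 1, with a median of 38.1%. Drug-loaded MNs replicate 2 held 13.9% (MATN3) to 124% (COL9A2), with a median of 24.0%. Over HS replicate 2 the median was 8.54-fold in drug-loaded MNs replicate 1 and 5.88-fold in replicate 2.

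The 10 genes did not keep a fixed proportion to each other in the treated libraries. CLEC3A, COL11A2 and S100A1 were higher in drug-loaded MNs replicate 1 than in replicate 2, by 2.41-fold, 2.07-fold and 2.05-fold. COL9A2 and CNMD were higher in drug-loaded MNs replicate 2, by 3.13-fold and 2.23-fold. On the log2 scale 3 genes passed a difference of 1 towards replicate 1, as 2.93% of all tested genes did, and 2 towards replicate 2, as 1.69% did. Replicate 1 was the higher in 7 of the 10 genes, close to the 77% among the 222 genes named above. These are single libraries, so the differences are given without a test.

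When the drug-loaded MNs group was set against HS, no member had a limma adjusted p under 0.05 over the 9348 genes, a limit that 0.0428% of genes passed. At an unadjusted p under 0.05 there were 0 of the 10, against 8.65% of all genes. The adjusted p ranged from 0.800 (COL9A2) to 0.983 (SCRG1). The groups overlapped in all 10, while 37.8% of all genes had groups that did not. Because the genes were chosen for unlike HS libraries, their spread within HS was large by choice, and a p that misses the threshold does not show that the groups were alike.

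The log2 fold change was 1.20 (SE 1.37) in COL9A1, 1.45 (SE 1.11) in COL9A2, 1.05 (SE 1.20) in HAPLN1 and 0.77 (SE 1.23) in COL11A2. It was 0.44 in CNMD, 0.33 in FRZB, -0.36 in S100A1 and -0.72 in MATN3. CLEC3A (0.23) and SCRG1 (-0.11) lay so near 0 that the sign flipped with another pseudocount in both, and with quantile normalization in CLEC3A. The change was below 0 in 3 of the 10, as in 35.4% of all tested genes. The median of the 10 was 0.38 beside 0.12 for all tested genes. The SE exceeded the fold change in 8 of the 10, the exceptions being COL9A2 and MATN3.

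The direction depended on the scale. In 6 of the 7 genes with a fold change above 0 on the log scale, the arithmetic mean was lower in drug-loaded MNs. COL9A1, for instance, averaged 140 ± 188 units in HS (SD, n = 2) against 105 ± 31.2 units (SD, n = 2) after treatment, and COL11A2 averaged 199 ± 261 and 143 ± 70.3 units. Only COL9A2 had both the mean (13.3 ± 17.7 and 21.1 ± 15.4 units) and the fold change higher in drug-loaded MNs. The means of 9 of the 10 genes were lower in drug-loaded MNs, and within HS the SD exceeded the mean in all 10.

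The direction also changed with the HS library in use. Without HS replicate 2 all 10 genes had a fold change below 0, with a median of -1.69 beside 0.19 for all genes (limma adjusted p from 0.186 to 0.732). Without HS replicate 1 the 9 genes still tested were all above 0, with a median of 2.80 beside 0.04 for all genes (limma adjusted p from 0.143 to 0.559). In both fits HS was 1 library, assumed to vary like the treated pair. Leaving out a treated library turned the sign as well, in CNMD (-0.14) and S100A1 (0.14) without drug-loaded MNs replicate 2 and in CLEC3A (-0.32) and SCRG1 (0.013) without replicate 1. Since the difference between the HS libraries chose the genes, these opposite directions follow from the choice together with the position of the treated libraries between them.

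**Figure D3:**
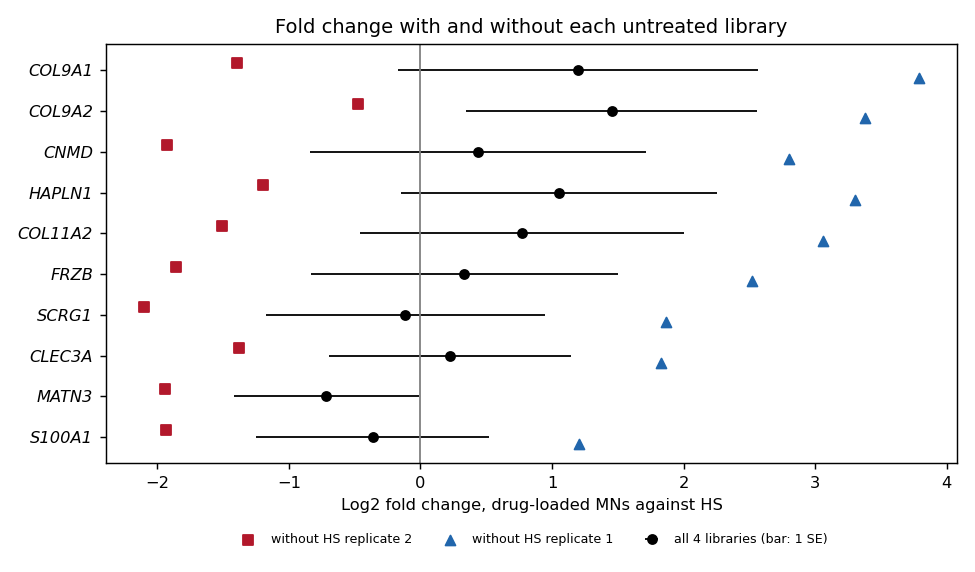
Log2 fold change of drug-loaded MNs against HS for each cartilage gene, with all 4 libraries (black, bar of 1 SE), without HS replicate 2 (red) and without HS replicate 1 (blue; MATN3 was then under the filter). Red points lie from -2.10 to -0.48 and blue points from 1.21 to 3.79, on opposite sides of 0.

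Other genes of cartilage came from 8 lists, which gave 143 genes, of which 89 were analysed and 78 passed the filter. Of these 78, 14 were higher in HS replicate 1 than in HS replicate 2 by more than 1 on the log2 scale (17.9%, beside 2.37% of all tested genes) and 0 were lower by more than 1 (beside 3.61%). The members had been drawn from known cartilage genes on this same difference, so the count leaves out the genes picked for it. The lists themselves were chosen with earlier results of these data known, so the count is a description and not an independent check. CHRDL2 and PANX3, among the 14, passed the filter only through HS replicate 1, like MATN3, since their means over the other 3 libraries were 0.426 and 0.828 units. They therefore had to differ, and they add nothing to the count. The median difference of the 78 was 0.21. In 10 of the 14 both treated libraries lay between the HS libraries, beside 54.1% of the 222 tested genes past the same HS difference. CHRDL2 and PANX3 are among the 10. No gene of the 78 had a limma adjusted p under 0.05 between the groups, while 23 had an unadjusted p under 0.05 with a higher level in drug-loaded MNs (7.26% of all genes) and 0 with a lower level (1.39% of all genes).

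COL2A1, COL9A3, ACAN and COMP, which code for type II collagen, the remaining chain of type IX collagen, aggrecan and a pentameric adaptor, were not analysed here, so the name cartilage rests on the genes that were. Of 4 analysed collagens outside the members, COL11A1, the partner of COL11A2 in type XI collagen, stood at 594 and 56.9 units in HS and at 415 and 316 in drug-loaded MNs. It followed the order of the members, with a log2 fold change of 0.97 between groups (limma adjusted p 0.840). COL14A1, a fibril-associated collagen also found in dermis, did not: it stood at 266 and 293 units in HS and at 563 and 498 in drug-loaded MNs, with no overlap (log2 fold change 0.92, limma adjusted p 0.314).

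Among proteoglycans and matrix proteins, 4 of 13 tested genes were higher in HS replicate 1 by more than 1 on the log2 scale. Over all tested genes the share was 2.37%. MGP, an inhibitor of mineral deposition, stood at 2935 and 595 units in HS and at 1905 and 1235 in drug-loaded MNs. OMD, a small leucine-rich proteoglycan, stood at 25.0 and 3.06 units in HS and at 14.7 and 15.6 in drug-loaded MNs. In FMOD, another small leucine-rich proteoglycan, the gap was smaller, at 155 and 65.4 units in HS and at 141 and 135 in the treated libraries. EDIL3, a secreted integrin-binding protein, stood at 17.8 and 7.47 units in HS and at 16.7 in drug-loaded MNs replicate 2, while replicate 1 held 124% of the level of HS replicate 1. MATN1, a matrilin typical of cartilage, lay under the filter, at 2.51 and 0.395 units in HS and at 0.314 and 0.706 in drug-loaded MNs, so HS replicate 1 alone stood apart.

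The regulators were divided. SOX9, the transcription factor that drives the chondrocyte program and that hair follicles also use, stood at 113 and 90.7 units in HS and at 105 and 65.8 in drug-loaded MNs. It thus showed no gap of the kind seen in the members, with a 1.24-fold ratio between the HS libraries, and 0 of the 10 tested transcription factors differed by more than 1 on the log2 scale. With only 2.37% and 3.61% of all tested genes that far apart in the 2 directions, a count of 0 does not set this list apart. The median difference of the 10 factors was -0.43, beside -0.12 for all tested genes, so it lay against the order of the members. Of the 10, 4 were higher in HS replicate 1. Most tested genes were likewise lower there, as their median of -0.12 shows, so this count does not set the list apart. RUNX2 and MEF2C, factors of cartilage maturation, had log2 fold changes of 0.68 and 0.75 between groups (limma adjusted p 0.479 and 0.458).

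Of 15 tested signals and receptors, 3 were higher in HS replicate 1 by more than 1, beside 2.37% of all tested genes. ITGA10, the collagen-binding integrin chain of chondrocytes, stood at 20.5 and 2.48 units in HS and at 13.1 and 6.66 in drug-loaded MNs. CRISPLD1 stood at 87.4 and 11.6 units in HS and at 73.2 and 21.6 in drug-loaded MNs, and CHRDL2, a binder of bone morphogenetic proteins, at 2.82 and 0.139 units in HS with 0.540 and 0.600 after treatment. For these 3 genes the ratios of HS replicate 1 to HS replicate 2 were 8.28-fold in ITGA10, 7.52-fold in CRISPLD1 and 20.3-fold in CHRDL2. All 3 had the treated libraries between the HS libraries, and CHRDL2 was among the tested genes only because of its level in HS replicate 1. GDF5 and UCMA lay under the filter: GDF5, a joint growth factor, stood at 2.31 and 0.018 units in HS, and UCMA, a cartilage matrix protein, at 1.17 units in HS replicate 1 and was listed at 0 in HS replicate 2.

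Sulfate supply and chondroitin synthesis feed the proteoglycans. PAPSS2, which makes the sulfate donor and is needed for cartilage growth, stood at 68.2 and 20.2 units in HS and at 53.5 and 44.1 in drug-loaded MNs. CSGALNACT1, which starts chondroitin chains, stood at 12.1 and 4.42 units in HS and at 11.9 and 7.29 in drug-loaded MNs. Both were among 13 tested genes of that list, and no other had an HS log2 difference over 1. In the list of hypertrophic and mineralizing cartilage it was 3 of 9, beside 2.37% of all tested genes. The 3 were BGLAP (41.3 and 7.06 units in HS), PANX3 (2.38 and 0.127, tested only because of HS replicate 1) and IBSP (2.99 and 0.968). BGLAP and IBSP were lower than HS replicate 2 in 1 treated library each, at 2.96 units in replicate 2 for BGLAP and 0.117 in replicate 1 for IBSP. SPP1, the matrix protein osteopontin, which macrophages also make, had a log2 fold change of 1.20 between groups (limma adjusted p 0.344).

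**Figure D4:**
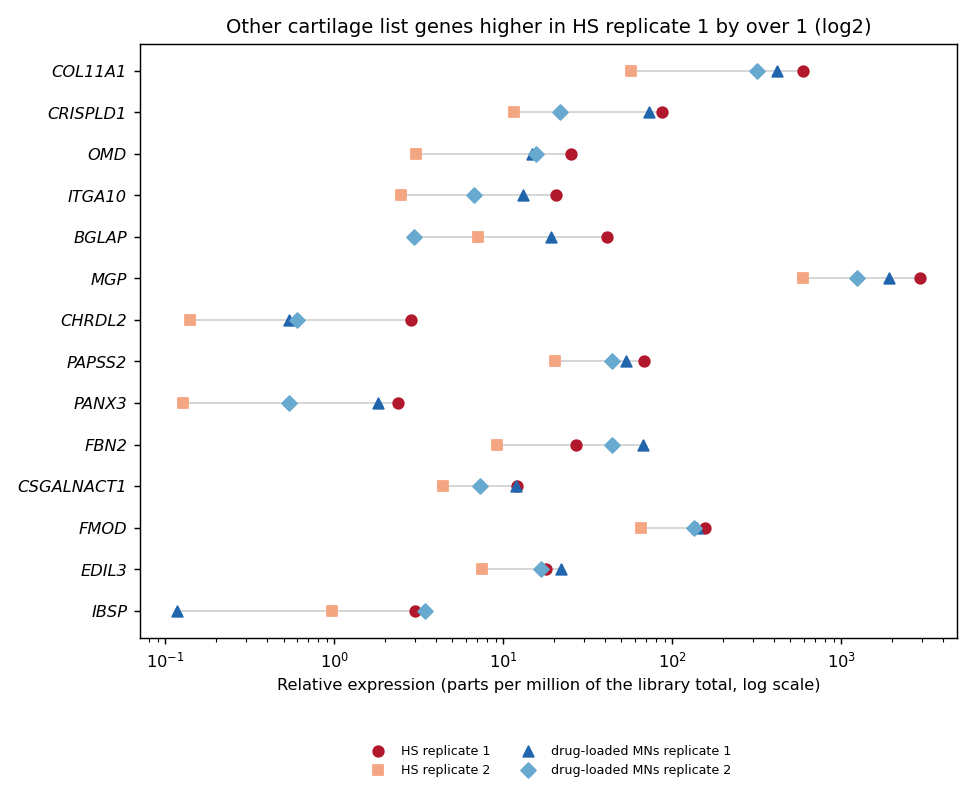
Relative expression, in units (library total 1000000) on a log axis, of the 14 tested genes of the other cartilage lists that were higher in HS replicate 1 than in HS replicate 2 by more than 1 on the log2 scale; each point is 1 library. Both treated libraries lie between the HS libraries in 10 of the 14, beside 54.1% of all tested genes past the same HS difference. FBN2, EDIL3, BGLAP and IBSP are the exceptions.

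Genes of the perichondrium, tendon and elastic fibres mostly had small differences between the HS libraries. Of 9 tested perichondrium and tendon genes, FMOD alone was higher in HS replicate 1 by more than 1 on the log2 scale. Over all tested genes 2.37% were. ASPN, PRRX1 and MKX had log2 fold changes of 1.03, 0.93 and 0.93 between groups (limma adjusted p 0.270, 0.344 and 0.444), and the HS libraries of ASPN were close, at 108 and 111 units. The 9 tested elastic fibre genes had groups that did not overlap, with the higher values in drug-loaded MNs, beside 37.8% of all tested genes whose groups did not overlap in either direction, and their median log2 fold change was 1.03. Each had an unadjusted p under 0.05, as 7.26% of all genes had in that direction, but the limma adjusted p ran from 0.264 to 0.495, so no gene passed. The 7 fibroblast markers lay in the same direction, with a median of 0.90, and their part in these values was not tested. FBN2, a fibrillin, stood at 26.8 and 9.15 units in HS and at 66.8 and 44.1 in drug-loaded MNs, and FBLN2, EFEMP1, LTBP2 and EMILIN1 had log2 fold changes from 0.85 to 1.13. The median difference between the HS libraries was 0.06 for the elastic fibre list and 0.23 for the perichondrium and tendon list. ELN, the elastin gene, was not analysed here.

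The 10 genes with a symbol, outside the members, whose centred log2 values over the 4 libraries lay nearest to the median profile of the members were C2orf40, S100B, SUSD5, COL11A1, PCOLCE2, MSMP, ITIH6, CHI3L1, MYOC and NRK, in that order. Their Euclidean distances ran from 0.535 to 1.18. By correlation in place of distance the nearest were RTCB, IFT20 and MALL, and the 10 nearest by each measure shared 0 genes, so the names depend on the measure. C2orf40, which codes for a secreted peptide, stood at 497 and 24.2 units in HS and at 274 and 141 in drug-loaded MNs. S100B, a calcium-binding protein of both Schwann cells and chondrocytes, stood at 410 and 17.0 units in HS and at 204 and 98.5 in drug-loaded MNs. Both had the order of COL11A2. All 10 had the treated libraries between the HS libraries, an order that the choice by profile fixes. CHI3L1, a glycoprotein secreted by chondrocytes and macrophages, stood at 61.3 and 6.49 units in HS and at 19.9 and 24.8 in drug-loaded MNs. None had a p under 0.05 between groups, and 4 libraries cannot tell this likeness apart from any other source of the same order.

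Some markers of other cell types were also higher in HS replicate 1 than in HS replicate 2, while other lists, given below, were lower. All 6 melanocyte markers were higher there than in HS replicate 2, with a summed level of 362 and 162 units in HS. In drug-loaded MNs they summed to 340 and 174 units, so replicate 1 came close to HS replicate 1. It did not in the members, but these were chosen for unlike HS libraries, so the contrast is not like for like. The 4 mast cell markers summed to 136 and 57.5 units in HS and to 86.4 and 183 in drug-loaded MNs. S100A8 and S100A9, calcium-binding proteins of neutrophils and stressed keratinocytes, were chosen after their values were seen. They stood at 153 and 71.8 units in HS replicate 1 and at 12.6 and 4.83 in HS replicate 2. In drug-loaded MNs S100A8 stood at 13.6 and 32.3 units and S100A9 at 6.02 and 20.1. HBB2, a globin gene, stood at 7.66 units in HS replicate 1, was listed at 0 in HS replicate 2 and stood at 1.32 and 0.228 in drug-loaded MNs. It passed the filter only through HS replicate 1, since its mean without that library was 0.516 units, so it had to differ. Of the same erythroid list, ALAS2 (0.082 and 0.187 units in HS) and SLC4A1 (0.036 and 0) lay under the filter. The part of these markers in the cartilage result was not tested.

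S100B also belongs to the Schwann marker list. The 7 Schwann markers summed to 617 and 306 units in HS, but without S100B the other 6 summed to 206 and 289 units in HS and to 345 and 306 in drug-loaded MNs. Fibroblast markers (7 genes) summed to 23103 and 22644 units in HS, a 1.02-fold ratio beside 24.6-fold for the members, and to 44808 and 48771 in drug-loaded MNs. Basal keratinocyte, hair follicle and sebaceous, endothelial, macrophage and adipocyte lists differed between the HS libraries by 1.53-fold or less in their sums. Single genes could differ more. The endothelial list had a median log2 difference of -0.52, with 1 of 6 genes higher in HS replicate 1. Of the 7 macrophage markers, 2 were lower there by more than 1 on the log2 scale and 0 higher, beside 3.61% and 2.37% of all tested genes. Suprabasal keratinocyte markers summed to 36826 and 52321 units in HS, mural markers to 315 and 640 units, and dissociation response genes to 10884 and 17369 units, all lower in HS replicate 1. The T cell, skeletal muscle and erythroid lists had 1 tested gene each, and their highest summed level in any library was 3.73, 21.4 and 7.77 units. LEP, an adipocyte hormone, was listed at 0 in all 4 libraries. Between groups, the 7 fibroblast and 7 macrophage markers had median log2 fold changes of 0.90 and 1.22, with higher values in both drug-loaded MNs libraries. All 14 had an unadjusted p under 0.05, beside 7.26% of all genes in that direction, but their limma adjusted p was 0.264 or more, so none passed. The part of these lists in the cartilage values was not tested.

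**Figure D5:**
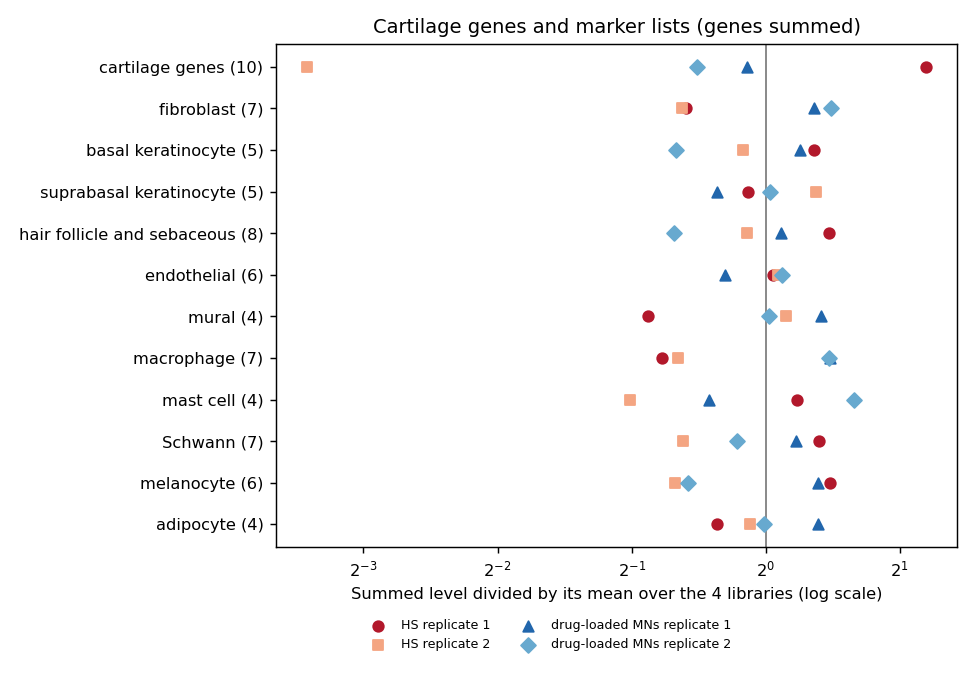
Summed level of the 10 cartilage genes and of 11 marker lists, each divided by its mean over the 4 libraries (log axis, number of genes analysed in brackets); each point is 1 library. HS replicate 2 of the cartilage genes lies at 4.07% of HS replicate 1, a gap for which they were chosen. In the fibroblast, macrophage and adipocyte lists both treated libraries lie above both HS libraries.

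A pair of members share their place in the genome with named neighbours. In RefSeq mOryCun1.1, S100A1 overlaps S100A13 and S100A3, and SCRG1, which is listed there as a long non-coding RNA, overlaps SAP30. S100A13 stood at 198 and 173 units in HS and at 257 and 218 in drug-loaded MNs, SAP30 at 55.4 and 57.1 units in HS and at 56.5 and 43.7 in drug-loaded MNs, and S100A3 at 13.9 and 8.10 units in HS and at 14.6 and 7.67 in drug-loaded MNs. Their differences between the HS libraries were smaller than those of the members, at most 0.71 on the log2 scale, in S100A3.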

How the data were processed

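Libraries were made by the 10x Genomics single-cell method. Per the labels the authors used Cell Ranger 2.1.1, while the reporting summary of the study names 3.1.0. The submitters' processing notes name mm10, a mouse build, although the gene identifiers are of rabbit. UMI counts from Cell Ranger went into Seurat, the methods also name a correction for batch effects, and whether it reached these values was not stated. How doublets were treated was not stated. The deposited values are a relative expression signal: each library summed to 10000, so they were not taken as FPKM or as corrected for gene length. Whole reads could not be recovered, as 18.6% to 21.7% of low values lay within 0.1 of whole multiples of the smallest, so depth is unknown and no count model was run.

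Values were rescaled to 1000000 per library and genes averaging under 1 unit were left out. Log2(value + 1) was fitted over all 9348 genes with lmFit and eBayes with trend (limma 3.58.1, R 4.3.3), without covariates. P-values were two-sided, with Benjamini-Hochberg adjustment over all genes. The planned FPKM unit did not hold, and this scaled test was used. The fit was tested on simulated data. An exact permutation test of 2 against 2 libraries cannot give a p below 0.333 and was not used. Members and lists were chosen with earlier results of these data known. Named genes were the members, 7 fixed cartilage genes, the 10 genes nearest in profile and up to 5 genes of each cartilage list. Those of the lists had an HS difference over 1 or an unadjusted p under 0.05, the largest HS difference in either direction first. Genes with a low p but a small HS difference, such as CHRDL1, GREM1 and CRTAC1, could thus go unnamed. The neighbours of members and S100A8, S100A9 and HBB2 were picked after their values were seen. Rows were matched by the symbol in the table, which 10207 of 13913 genes had. Alternatives changed scaling, pseudocount, filter, prior, block and libraries.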

Additional observations from a re-analysis of the deposited data

How the results depend on the processing

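The 10 cartilage genes were compared between drug-loaded MNs and HS under 14 other settings of the analysis, and no member passed an adjusted p of 0.05 in limma under any of them. The lowest adjusted p was 0.0842, without drug-loaded MNs replicate 1. Over all genes the 4 calls became 0 with median ratio scaling, no filter, a pseudocount of 5, quantile normalization and totals without abundant genes, 1 with eBayes without trend, and 0 to 75 when a library was left out (48 without drug-loaded MNs replicate 1 and 75 without replicate 2, 0 without HS replicate 1). With the replicate block it was 241. The labels give no shared animal or day for a replicate number, and same-numbered libraries deviated together with a correlation of 0.22. Whether same-numbered libraries shared an animal, day or batch is unknown and was not tested.

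Leaving out a library moved the members' median log2 fold change from -1.69 to 2.80, while other settings kept it between 0.19 and 0.47. By gene the range was -1.40 to 3.79 in COL9A1, -0.48 to 3.38 in COL9A2, -1.93 to 2.80 in CNMD, -1.19 to 3.30 in HAPLN1, -1.51 to 3.06 in COL11A2, -1.86 to 2.52 in FRZB, -2.10 to 1.87 in SCRG1, -1.38 to 1.83 in CLEC3A and -1.93 to 1.21 in S100A1. HS replicate 2 left out gave the lowest and HS replicate 1 left out the highest of these. A group left with 1 library was assumed to vary like the other group. CLEC3A also turned to -0.036 with a pseudocount of 5 and to -0.015 with quantile normalization, and SCRG1 to 0.038 with a pseudocount of 0.1. The median of all genes shifted from 0.12 to -0.011 with median ratio scaling and to -0.019 with quantile normalization.

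The median difference between the HS libraries fell to 3.25 in the members with a pseudocount of 5. It was 0.57 with median ratio scaling and 0.50 with quantile normalization in the proteoglycan list, and -0.036 at a minimum mean of 5 in the perichondrium and tendon list. The median log2 fold change in the sulfate list was 0.083 with quantile normalization. Without a library it spanned 0.12 to 0.85 in the collagen, 0.11 to 0.82 in the proteoglycan, -0.073 to 0.28 in the transcription factor, 0.049 to 0.46 in the sulfate and 0.32 to 0.85 in the perichondrium and tendon list. The cause was not tested. MATN3 gave no value at a minimum mean of 5 or without HS replicate 1. Unknown depth and 2 libraries a group limit every value.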
